A study of Mus musculus with 6 samples.

Results

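The 10 genes described here encode the core of the Polycomb repressive complexes and 1 enzyme that opposes them: Ezh1, Ezh2, Eed and Suz12 of Polycomb repressive complex 2, Bmi1, Ring1, Rnf2, Cbx7 and Cbx8 of Polycomb repressive complex 1, and the demethylase gene Kdm6a. They were chosen by name, from among 21883 protein-coding mouse genes, and for each one every deposited H3K27ac peak that overlapped the RefSeq gene span extended by 10 kb on each side was taken. All 10 were found in RefSeq GRCm38.p6, whose coordinates are used throughout, and 124 of the 194026 peaks in the 6 lists overlapped their spans. The peaks came from CUT&RUN, an assay in which an antibody tethers a nuclease to a chromatin mark so that the DNA under the mark is cut out and sequenced. The mark was H3K27ac, acetylated lysine on histone H3 that is found at active promoters and enhancers. The cells were primary hematopoietic stem cells from mouse bone marrow, in 3 libraries from mice that were wild type for Ppp2ca and 3 libraries from Ppp2ca-deficient mice, called knockout in the sample titles. Ppp2ca encodes a catalytic subunit of protein phosphatase 2A. Strain, age, sex, the deleted exons, the promoter of any Cre transgene and the sort gate are unknown from the sources used here. The design text counts 3 mice in each group, but the labels do not number the animals.

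Polycomb repressive complex 2 places methyl groups on the same lysine of histone H3 that carries H3K27ac, and a given lysine cannot carry both marks at once. Polycomb repressive complex 1 attaches ubiquitin to histone H2A and compacts chromatin, and its CBX subunits bind the methyl mark. Both complexes keep lineage genes and the Cdkn2a locus silent in blood stem cells, and Bmi1 is known for its role in the self-renewal of these cells.

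The 2 groups differed across the whole genome. The wild-type lists held 21917 to 29945 peaks over 7.25 to 9.60 Mb and the knockout lists 34016 to 50453 peaks over 14.5 to 22.7 Mb. A q-value of at most 0.05 was reached by 15.7 to 16.7% of wild-type peaks and by 43.9 to 66.6% of knockout peaks. Where it was counted, the share of all genes that met the same condition is therefore set beside the members. Sequencing depth is unknown. The peak caller's most common background level was 0.498 to 0.584 fragments in the wild-type libraries. In knockout libraries 1, 2 and 3 it was 0.738, 0.465 and 0.827. The group ranges overlapped through knockout library 2 only, and the other knockout libraries were above every wild-type library. Among 14 stem cell markers, 3 to 4 were marked within 1 kb of a gene end in wild-type libraries and 2 to 4 in knockout libraries, with Tal1 and Runx1 marked in all 6. Stem cell markers marked in none included Ly6a, Slamf1, Mecom, Hlf, Gata2, Cd34 and Tek. Of 9 myeloid markers, a wild-type library marked 2 to 5 and a knockout library 5 to 7. The corresponding counts were 3 to 4 and 4 to 5 of 8 erythroid markers, 0 to 2 and 0 to 3 of 7 B lymphoid markers, 1 and 1 to 2 of 8 T and NK markers, 2 to 4 and 2 to 3 of 5 megakaryocyte markers, and 1 and 2 of 6 stromal and endothelial markers. Markers of other cell types marked in all 6 libraries were Klf1 (erythroid), Csf1r and Cebpe (myeloid), Itga2b and Gp1ba (megakaryocyte) and Pecam1 (stromal and endothelial). Markers without a peak within 1 kb of a gene end in any library included Elane, Gata1, Pax5, Cd3e, Ppbp and Cdh5. The part of these cell types in the results was not tested. In a bulk library, a mark on more cells and more of the mark per cell cannot be told apart. Ppp2ca itself had 729 to 1077 covered bp at its gene ends in wild-type libraries and 1338 to 1381 in knockout libraries. Acetylation at these ends does not check the deletion.

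Sequences upstream of 4 members are shown first, since peak coverage of these bases ran from every library to none. Each is the 250 bases before the start in RefSeq GRCm38.p6, 5′ to 3′ on the gene's strand, and capitals mark matches to the 5 motifs searched. The Ezh2 bases (chr6:47595031-47595280, minus strand) and the Eed bases (chr7:89980977-89981226, minus strand) were touched by a peak in all 6 libraries. The Ring1 bases (chr17:34024681-34024930, minus strand) were touched in 3 knockout and 0 wild-type libraries, and the Bmi1 bases (chr2:18676768-18677017, plus strand) in 0 libraries.
Ezh2: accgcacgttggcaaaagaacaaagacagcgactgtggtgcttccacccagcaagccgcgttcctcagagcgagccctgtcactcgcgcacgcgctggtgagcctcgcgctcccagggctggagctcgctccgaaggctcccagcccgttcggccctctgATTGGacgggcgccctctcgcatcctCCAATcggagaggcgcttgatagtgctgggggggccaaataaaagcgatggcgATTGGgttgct
Eed: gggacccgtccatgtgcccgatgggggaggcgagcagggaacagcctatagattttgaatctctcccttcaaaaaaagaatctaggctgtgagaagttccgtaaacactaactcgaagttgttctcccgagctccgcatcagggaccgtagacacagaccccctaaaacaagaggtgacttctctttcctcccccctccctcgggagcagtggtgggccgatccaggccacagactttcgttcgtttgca
Ring1: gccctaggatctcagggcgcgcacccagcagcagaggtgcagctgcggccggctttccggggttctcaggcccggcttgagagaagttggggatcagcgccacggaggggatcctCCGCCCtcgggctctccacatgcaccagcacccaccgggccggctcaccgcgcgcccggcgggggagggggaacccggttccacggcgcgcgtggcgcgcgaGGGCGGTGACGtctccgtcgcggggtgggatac
Bmi1: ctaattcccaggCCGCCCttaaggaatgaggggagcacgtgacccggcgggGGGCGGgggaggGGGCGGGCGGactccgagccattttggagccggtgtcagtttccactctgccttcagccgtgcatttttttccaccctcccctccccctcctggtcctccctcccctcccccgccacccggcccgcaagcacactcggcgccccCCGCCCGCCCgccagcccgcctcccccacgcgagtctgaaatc
The 5 motifs were searched on both strands. GGGCGG, the core of the GC box, was present upstream of 7 of 10 members (Bmi1, Cbx7, Cbx8, Kdm6a, Ring1, Rnf2 and Suz12), against 42.6% of 21262 RefSeq promoters. CCAAT was present upstream of 4 (Cbx7, Cbx8, Ezh2 and Suz12), against 35.4%. TGACG, the core of the cyclic AMP response element, was present upstream of 4 (Cbx8, Kdm6a, Ring1 and Suz12), against 20.2%, and TGCGCA, which reads the same on either strand, upstream of 2 (Cbx7 and Ezh1), against 8.06%. CCGGAAG, a core bound by ETS family factors, was absent from these bases in all 10 members and present in 8.98% of promoters. The members' upstream bases held 12 to 37 CG dinucleotides, with the fewest at Eed and the most at Suz12, and the median of all promoters was 10. Bmi1, touched in no library, held 21.

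Regions at the starts of the members were mostly found in several libraries, and regions elsewhere were mostly found in 1. Of the 124 peaks, 48 lay within 1 kb of a gene end, 55 in the gene body and 21 in the flanks. Merged across libraries they formed 55 regions, of which 37 came from 1 library only. Within 1 kb of a RefSeq start there were 9 regions, of which 1 came from 1 library. Elsewhere there were 46, of which 36 did. The 5 regions found in all 6 libraries were the starts of Ezh2, Eed and Kdm6a, a site inside Cbx7 and a site in the flank of Ring1. At the 3 starts the libraries shared bases, whereas at Cbx7 and in the flank of Ring1 no base was covered in all 6, and the regions were joined through overlapping neighbours. One region was found in 3 knockout and 0 wild-type libraries, at the far end of Ezh1, and 0 regions in 3 wild-type and 0 knockout libraries. The same shares over all regions of the 6 lists are not given here. The region counts therefore describe the members and do not set them apart from other genes.

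**Figure D1:**
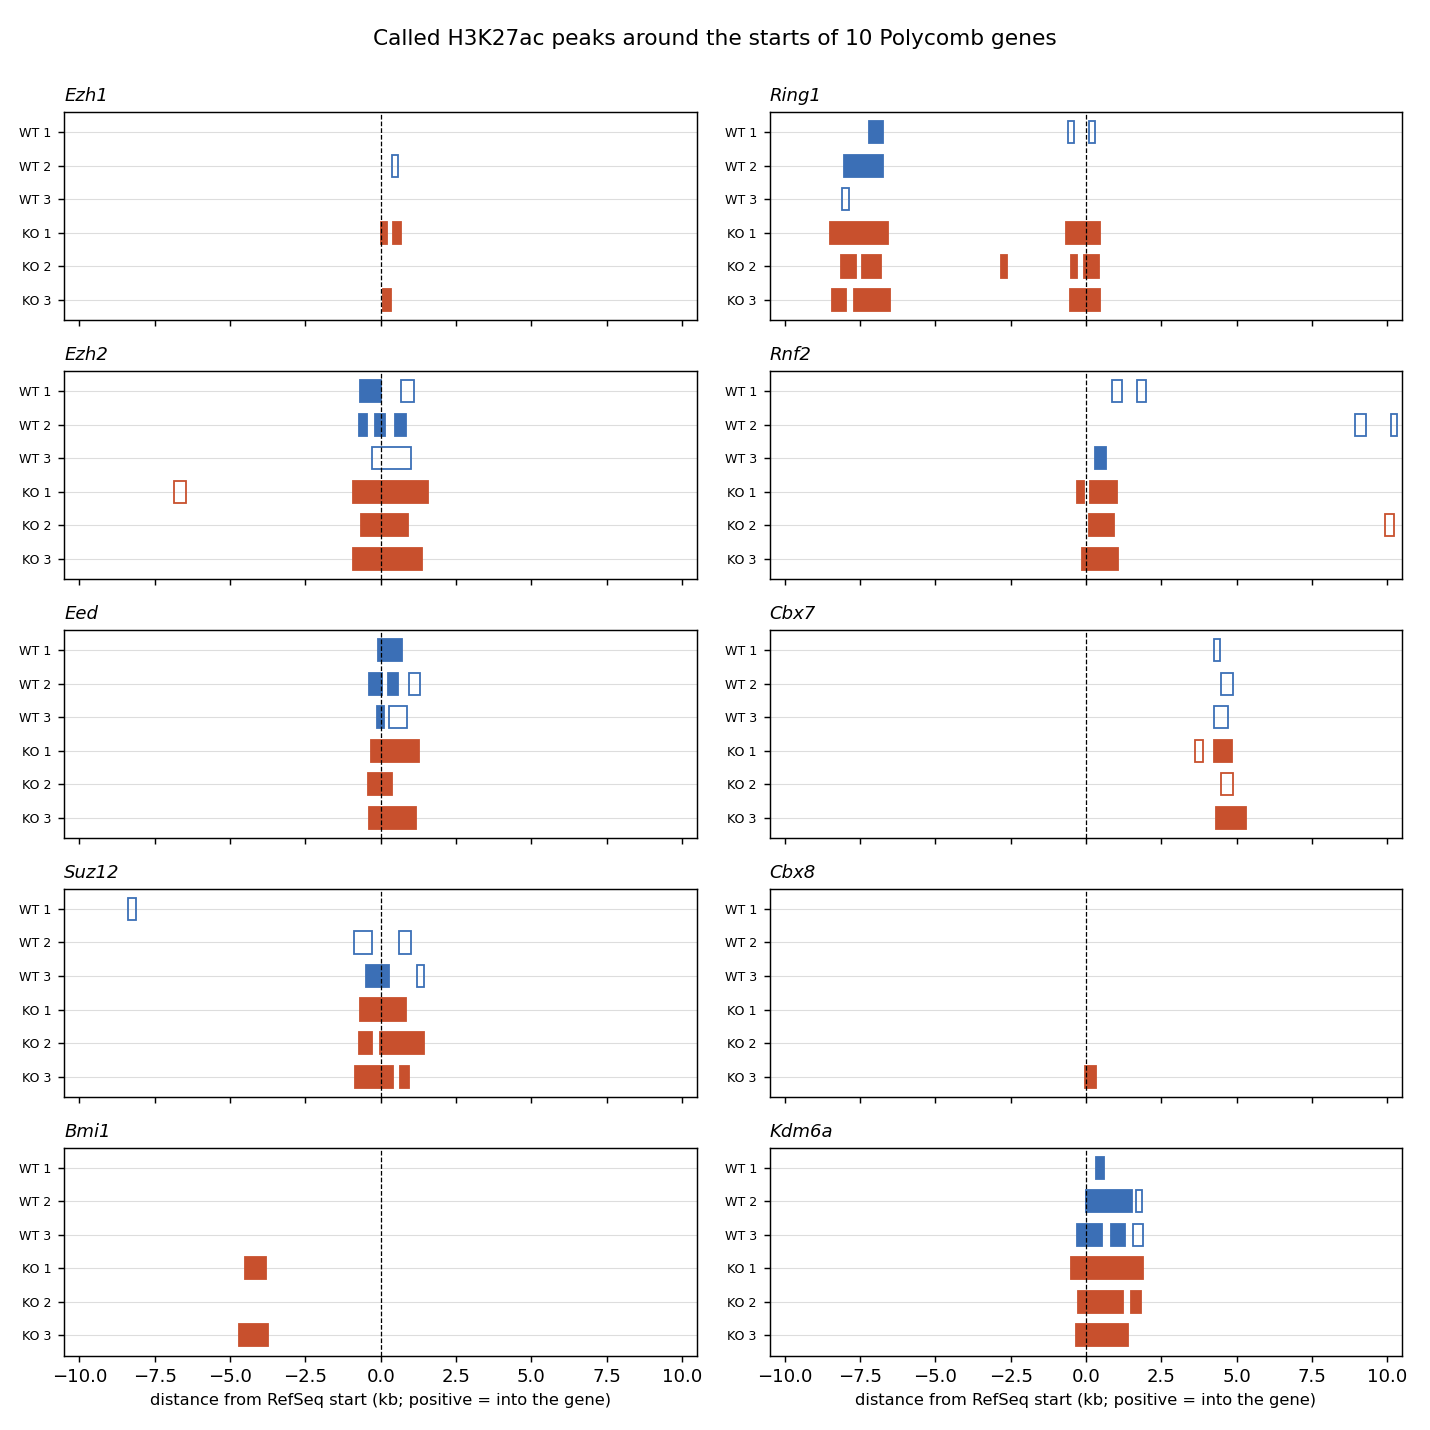
Peaks around the 10 genes by library, drawn as bars against distance from the RefSeq start (kb, positive into the gene); filled bars have a q-value of 0.05 or less and hollow bars a higher one. The starts of Ezh2, Eed and Kdm6a carried a peak in all 6 libraries, and Bmi1 and Cbx7 had none within 1 kb of the start.

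Coverage was measured as the number of base pairs under peaks within 1 kb on either side of the RefSeq start. This window was added after the peaks had been seen, because the RefSeq spans of Kdm6a and Cbx7 begin upstream of their listed starts. The measure set first, coverage within 1 kb of either gene end, is given after it. Group differences were tested by exact permutation (two-sided), which with 20 ways to split the 6 libraries gives no p under 0.1. No member could therefore pass a threshold of 0.05, and the order of the libraries is the main description.

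Ezh2 (chromosome 6, 47530274 to 47595270, minus strand), which encodes the main methyltransferase of Polycomb repressive complex 2 in dividing cells, had the largest mean covered length at the start in both groups, though Suz12 and Kdm6a were above it in wild-type library 2. The covered length was 1008, 966 and 1279 bp in wild-type libraries 1, 2 and 3 and 1907, 1562 and 1928 bp in knockout libraries 1, 2 and 3. Every knockout library was above every wild-type library. The means were 1084 ± 169.9 bp and 1799 ± 206 bp (SD, n = 3 each), a difference of 715 bp (exact permutation p = 0.1, Benjamini-Hochberg adjusted p = 0.181 over 8827 genes). Peaks of all 6 libraries shared 358 bp, in one stretch from -189 to 4 bp and another from 673 to 836 bp, counted from the start and positive into the gene. The first stretch lies over the 3 CCAAT-type matches in the sequence shown above. Inside the gene a 988 bp region at chromosome 6, 47565245 to 47566232, was marked in 3 wild-type libraries and 1 knockout library. None of the wild-type peaks, 200, 234 and 214 bp wide, reached a q-value of 0.05, while the 883 bp peak of knockout library 3 did. The wild-type library 3 peak did not overlap the other wild-type peaks and was joined to them by the knockout peak.

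Eed (chromosome 7, 89954654 to 89980976, minus strand), whose product binds the methyl mark and stimulates the enzyme, was the member whose covered length overlapped between the groups although its start was marked in every library. The start window held 803, 802 and 821 bp in the wild-type libraries and 1338, 775 and 1397 bp in the knockout libraries. Knockout library 2 was below all 3 wild-type libraries, and the other knockout libraries were above them. The means were 809 ± 10.7 bp and 1170 ± 343 bp (SD, n = 3 each), and the difference of 361 bp had an exact permutation p of 0.4 (adjusted p = 0.49). The height of the peak separated the groups where its width did not: the summit held 10, 9 and 8 fragments in the wild-type libraries and 35, 30 and 38 in the knockout libraries. These heights are not scaled for depth, which was not given. By the caller's own significance the Eed start peak ranked 785.5, 1798.5 and 2472 in the wild-type lists and 372, 109 and 335 in the knockout lists. That is within the best 3.56 to 11.3% and 0.319 to 0.939% of lists of different length.

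Suz12 (chromosome 11, 79993106 to 80034123, plus strand), the scaffold subunit of the same complex, carried a start peak in 2 of 3 wild-type and 3 of 3 knockout libraries. The covered length was 0, 985 and 768 bp in the wild-type libraries and 1546, 1431 and 1577 bp in the knockout libraries. The knockout libraries lay close together and above all wild-type libraries, which were spread over nearly 1 kb. The means were 584 ± 518 bp and 1518 ± 76.9 bp (SD, n = 3 each; exact permutation p = 0.1, adjusted p = 0.181).

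Ezh1 (chromosome 11, 101191115 to 101226463, minus strand), which encodes the other methyltransferase and is known as the form used by resting cells, was weakly marked. Its start window held 0, 200 and 0 bp in the wild-type libraries and 464, 0 and 282 bp in the knockout libraries. The groups overlapped, since knockout library 2 had no peak there and wild-type library 2 had one. The exact permutation p was 0.4 (adjusted p = 0.49). A 651 bp region past the far end of the gene, at chromosome 11, 101189973 to 101190623, carried a peak in 3 knockout libraries and in 0 wild-type ones. The peaks of knockout libraries 1 and 2 missed a q-value of 0.05, and wild-type library 1 had a 200 bp peak in the same window, at 101190810 to 101191009. That window also holds an end of Cntnap1, so these peaks cannot be assigned to Ezh1.

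Ring1 and Rnf2 encode the paired ubiquitin ligases of Polycomb repressive complex 1, and both had little or no start coverage in the wild-type libraries. Ring1 (chromosome 17, 34020792 to 34024680, minus strand) had 400, 0 and 0 bp in the wild-type libraries and 1140, 713 and 1008 bp in the knockout libraries. Its wild-type coverage was a pair of 200 bp peaks in library 1, neither of which reached a q-value of 0.05. The means were 133 ± 231 bp and 954 ± 219 bp (SD, n = 3 each; exact permutation p = 0.1, adjusted p = 0.181). The start base of Ring1 was covered in 3 knockout and 0 wild-type libraries, the only member with that pattern, beside 13.0% of the 7347 genes with a covered start base. The start window is shared with H2-Ke6, a neighbouring gene, so the peak cannot be assigned to Ring1 alone.

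Rnf2 (chromosome 1, 151469398 to 151500991, minus strand) had 147, 0 and 350 bp in the wild-type libraries and 1106, 833 and 1125 bp in the knockout libraries. All knockout libraries were above all wild-type libraries (166 ± 176 bp and 1021 ± 163 bp, SD, n = 3 each; exact permutation p = 0.1, adjusted p = 0.181). Knockout-only bases, covered in 3 knockout and 0 wild-type libraries, came to 384 bp at Rnf2, 448 bp in the span of Ring1, 134 bp at Suz12 and 126 bp in the span of Ezh1. Of the Ring1 bases, 40 bp lie in its upstream flank site, and all Ezh1 bases lie in the window shared with Cntnap1. The other members had 0 such bases, and all 10 had 0 bases covered in 3 wild-type and 0 knockout libraries. The same shares over all genes are not given here. The knockout lists as a whole covered 2.36 times the length of the wild-type lists, so these bases do not set the members apart.

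Ring1 also had a site outside the gene. A region of 2002 bp at chromosome 17, 34031168 to 34033169, at positions -8489 to -6488 bp from its start (negative values lie upstream), was marked in all 6 libraries. It lies at the genes Slc39a7 and Rxrb, so it cannot be assigned to Ring1.

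Bmi1 (chromosome 2, 18677018 to 18686629, plus strand), the partner that activates the ring ligases, had no peak in its body or at its ends in any of the 6 libraries. Its span held 2 peaks, of 678 bp in knockout library 1 and 958 bp in knockout library 3, with summits at -4251 and -4198 bp from the start. Their folds over background were 5.17 and 6.48. They lay within 1 kb of an end of Commd3, the neighbouring gene, and knockout library 2 and all wild-type libraries had none. The upstream bases of Bmi1 shown above, with 21 CG dinucleotides, had 0 covered bp in all 6 libraries.

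The CBX genes, which encode the readers of the methyl mark, carried almost no acetylation at their starts. Cbx7 (chromosome 15, 79915804 to 79971143, minus strand) had 0 bp in the start window of all 6 libraries, and Cbx8 (chromosome 11, 119036303 to 119040913, minus strand) had 0 bp in 5 libraries and 375 bp in knockout library 3. Cbx7 was marked instead inside the gene, at chromosome 15, 79927345 to 79928407, between 4239 and 5301 bp from the listed start. Peak width there was 200, 413 and 461 bp in wild-type libraries 1 to 3 and 575, 400 and 990 bp in knockout libraries 1 to 3, so the widths overlapped. Their folds were 3.25, 3.01 and 3.85 in the wild-type libraries and 5.21, 3.25 and 4.25 in the knockout libraries, and only knockout libraries 1 and 3 reached a q-value of 0.05. Coding, intron and UTR positions were not analysed here.

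Kdm6a (chromosome X, 18160862 to 18279936, plus strand) encodes the demethylase UTX, which removes the methyl mark and also acts in complexes that activate enhancers. Its start window held 263, 990 and 1021 bp in the wild-type libraries and 1500, 1249 and 1342 bp in the knockout libraries. Every knockout library was above every wild-type library, and wild-type library 1 stood well below the other wild-type libraries. The means were 758 ± 429 bp and 1364 ± 127 bp (SD, n = 3 each; exact permutation p = 0.1, adjusted p = 0.181). Peaks of all 6 libraries shared 202 bp, from 324 to 525 bp after the start, downstream of the start base itself.

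**Figure D2:**
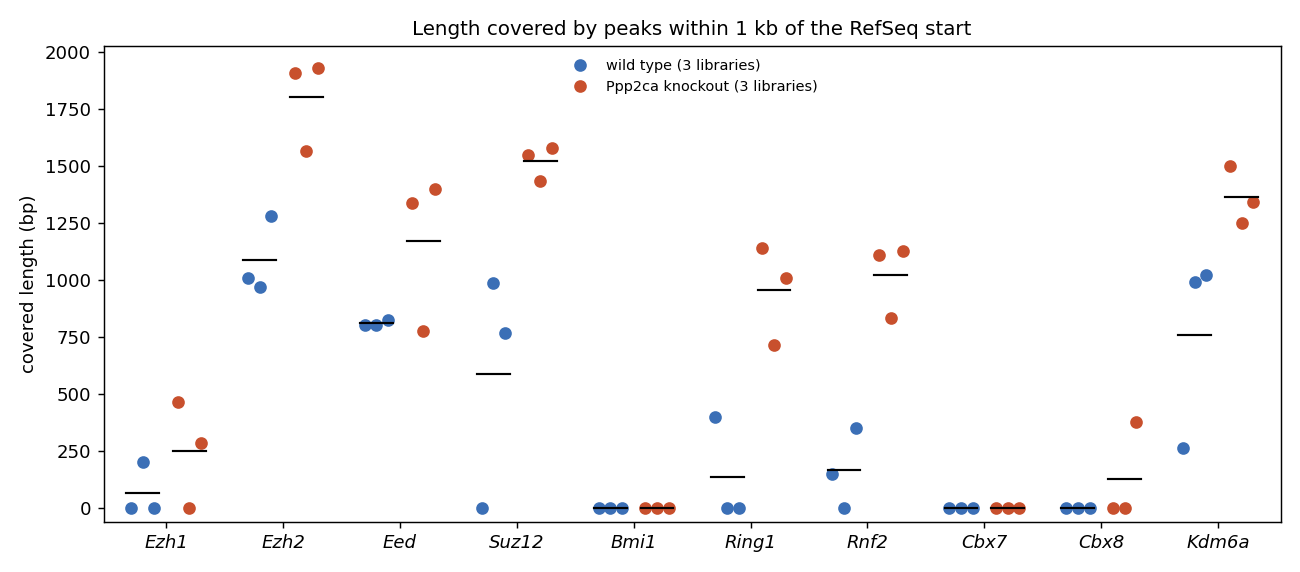
Base pairs under peaks within 1 kb of the RefSeq start for the 10 genes, with 1 point per library and a line at each group mean of 3 libraries. The knockout points lie above all wild-type points at Ezh2, Suz12, Ring1, Rnf2 and Kdm6a, while Eed and Ezh1 overlap and Bmi1 and Cbx7 are at 0.

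Of the 8 members with a start peak in any library, 5 had more covered bp in every knockout library than in every wild-type library: Ezh2, Suz12, Ring1, Rnf2 and Kdm6a. The same held for 55.3% of 8827 genes with a start peak, so the members' share was near that of genes at large. No member had fewer covered bp in every knockout library, and 0.0566% of genes did. The start was marked in all 6 libraries in 3 of the 8 members, against 37.1% of genes, and in 3 knockout and 0 wild-type libraries in 0 of 8, against 8.68% of genes. The median difference between group means was 660 bp over the 8 members and 480 bp over all 8827 genes, and 538 bp over the 3275 genes marked in all 6 libraries.

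Within 1 kb of either gene end, 8 members were marked in some library and 5 had more covered bp in every knockout library: Ezh1, Ezh2, Suz12, Ring1 and Rnf2. For Ezh1 this rests on the window shared with Cntnap1, which held the only gene-end peak of knockout library 2, 256 bp wide. Its groups overlapped (exact permutation p = 0.4) when only peaks with a q-value up to 0.05 were kept, when each library gave the same number of best peaks, and in 500 bp windows. The share over 11084 marked genes was 50.6%, and 0.0361% had fewer in every knockout library, among them no member. Ezh2 and Eed were marked in all 6 libraries by this measure, 2 of 8 members against 33.5% of genes. The exact permutation p was 0.1 (adjusted p = 0.198) for each of the 5 members and 0.4 (adjusted p = 0.519) for Eed. Kdm6a had 0 bp at its gene ends in all 6 libraries because its start peak lies inside the RefSeq span. Members marked at a gene end numbered 5, 4 and 4 in the wild-type libraries and 7, 6 and 7 in the knockout libraries.

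Over the whole extended spans, 5409, 8844 and 6840 bp were covered in the wild-type libraries and 17400, 11472 and 17073 bp in the knockout libraries. The groups did not overlap. The ratio of the means was 2.18, beside 2.36 for the covered length of the whole lists, so the members' spans had the smaller ratio. When only peaks with a q-value up to 0.05 were kept, the ratios were 4.24 for the spans and 6.14 for the whole lists. Without wild-type library 2 they were 2.5 and 2.61. The number of peaks in the spans was 17, 22 and 15 in the wild-type libraries and 25, 22 and 23 in the knockout libraries, and wild-type library 2 equalled knockout library 2. The ratio of mean peak numbers was 1.30, beside 1.62 for the whole lists.

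Start-window peaks reached a q-value of 0.05 more often than the other peaks of the same group, but the strengths overlapped. In knockout library 2, for example, the flank site of Ring1 had a summit of 25 fragments and its best start peak 12. The peak counts below pool the 3 libraries of a group. The same shares over the peaks of all genes are not given here, so they do not set the members apart. All 26 start-window peaks of the knockout libraries had a q-value of at most 0.05, with a median width of 1074 bp and a median summit of 17 fragments. In the wild-type libraries 14 of 24 start-window peaks (58.3%) did, with a median width of 397.5 bp and a median of 8 fragments. Away from the starts, 21 of 44 knockout peaks (47.7%) and 2 of 30 wild-type peaks (6.67%) reached that q-value, with median summits of 6 and 4.5 fragments. When only start peaks that reached this q-value were counted, the members marked numbered 3, 3 and 4 in the wild-type libraries and 7, 6 and 8 in the knockout libraries. Over 17491 genes with a listed start, the corresponding shares were 10.7 to 13.3% and 34.2 to 41.3%, so genes at large differed between the groups in the same direction.

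**Figure D3:**
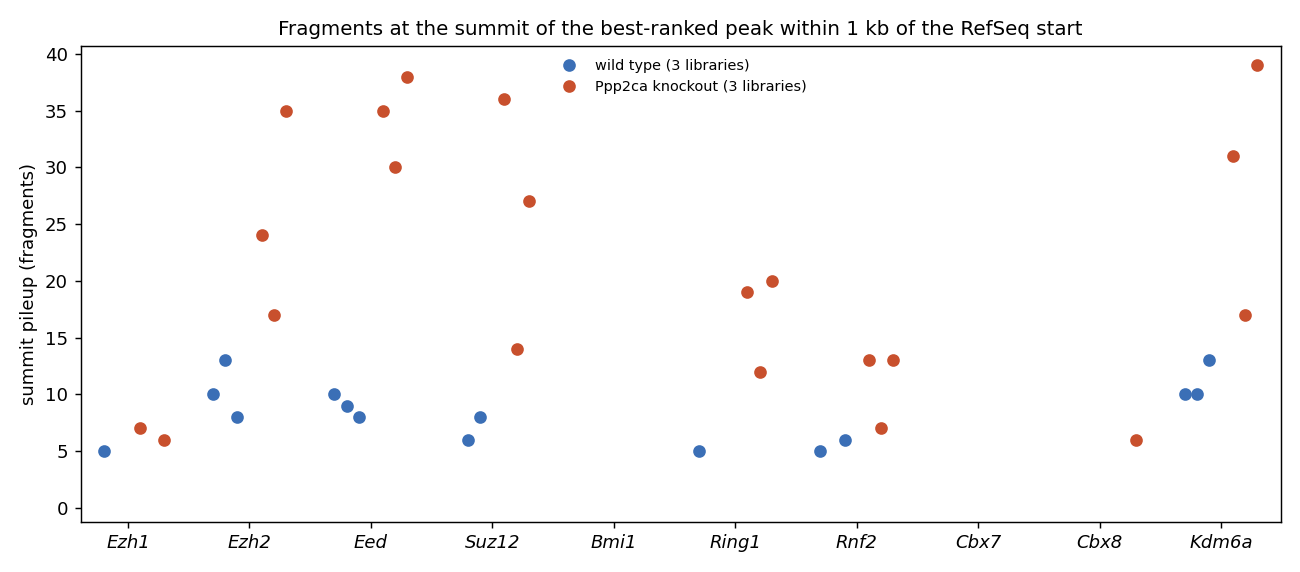
Fragments at the summit of the best-ranked peak that reached within 1 kb of the start, with 1 point per library that had such a peak. Heights are not scaled for sequencing depth, and a summit can lie farther than 1 kb from the start. With a missing peak taken as 0, all knockout libraries were above all wild-type libraries at 6 of the 8 members with a start peak in any library. The same order held at 69.0% of all genes with a start peak. Eed ran from 8 to 10 for wild type, against 30 to 38 for knockout.

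With a gene without a start peak taken as 0 fragments, 6 of the 8 members had a higher best summit in every knockout library, against 69.0% of 8827 genes, and 0.0227% of genes had a lower one. The share of the members was thus again near that of all genes. Ezh1 overlapped, with 5 fragments in wild-type library 2, 7 and 6 in knockout libraries 1 and 3, and no start peak in knockout library 2. Ezh2 had 10, 13 and 8 fragments at its best start summit in the wild-type libraries and 24, 17 and 35 in the knockout libraries. Kdm6a had 10, 10 and 13 against 31, 17 and 39. Suz12 had 6 and 8 in the wild-type libraries with a peak and 36, 14 and 27 in the knockout libraries. The heights at Ring1 were lower, with 5 fragments in wild-type library 1 and 19, 12 and 20 in the knockout libraries, and Rnf2 reached only 13, 7 and 13. Among the knockout libraries, library 2 had the lowest summit at all 6 of these genes. Its background level of 0.465 fragments was also the lowest of the 6 libraries. A start peak only had to reach into the window, so some of the summits lay more than 1 kb from the start. They lay at 1335 bp for Suz12 in knockout library 2, 1327 bp for Kdm6a in wild-type library 2 and 1053 bp for Rnf2 in wild-type library 1.

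The caller's fold values separated the groups less than the heights. At Ezh2 the folds were 4.01, 4.93 and 3.63 in the wild-type libraries and 3.96, 3.98 and 5.13 in the knockout libraries, which overlapped. The local background that the caller used at these summits was 1.74, 1.84 and 1.48 fragments in the wild-type libraries and 5.32, 3.52 and 6.02 in the knockout libraries. Of the 3 members with a start peak in all 6 libraries, only Eed had folds that separated the groups, at 5.39, 4.76 and 4.41 against 7.03, 8.20 and 7.33. Its local background was lower than that of Ezh2 in all 6 libraries, at 1.04 to 1.10 fragments for wild type and 2.78 to 4.32 for knockout. At Ring1 the fold was 3.30 in wild-type library 1, the only wild-type library with a start peak, and 4.59, 4.17 and 4.69 in the knockout libraries. The share of all genes with separated folds is not given here.

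Other genes of the pathway were described from 4 lists by whether a peak lay within 1 kb of a gene end. Of 8 partners of Polycomb repressive complex 2, 3.33 ± 1.53 were marked in wild-type and 6 ± 0 in knockout libraries (mean ± SD, n = 3 each), and 4 of the 6 ever marked had more covered bp in every knockout library. Mtf2 and Jarid2, which help bring the complex to chromatin, were marked in all 6 libraries. Mtf2 had 701, 201 and 986 bp in the wild-type and 1170, 1271 and 1215 bp in the knockout libraries, and Jarid2 387, 759 and 466 bp and 1309, 900 and 1560 bp. Phf19, a Polycomb-like relative of Mtf2, had 0 bp in the 3 wild-type libraries and 850, 789 and 561 bp in the knockout libraries.

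Of 18 partners of Polycomb repressive complex 1, 4.67 ± 0.577 were marked in wild-type and 12.3 ± 1.53 in knockout libraries, and 7 of 15 had more covered bp in every knockout library. Phc3, a polyhomeotic subunit, Rybp, which replaces the CBX subunit in variant complexes, and Scmh1 were marked in 3 knockout and 0 wild-type libraries. Their knockout values were 1197, 581 and 1003 bp for Phc3, 1036, 578 and 664 bp for Rybp and 420, 119 and 753 bp for Scmh1. These genes and Phf19 were named because of this pattern. The share of all genes with it at a gene end is not given here, so it is not a trait of these partners. For start windows the share was 8.68% of 8827 genes. Pcgf5, a relative of Bmi1, was marked in all 6 libraries, with 323, 248 and 570 bp in the wild-type and 1023, 492 and 1233 bp in the knockout libraries, which overlapped.

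Of 9 genes of the deubiquitinase complex that reverses the H2A mark and of other demethylases, 6 ± 1 were marked in wild-type and 7 ± 0 in knockout libraries, and 6 of 7 had more covered bp in every knockout library. Bap1, the deubiquitinase, had 869, 979 and 1473 bp in the wild-type and 2311, 1907 and 2503 bp in the knockout libraries. Hcfc1, a partner of this enzyme, had 555, 1094 and 1466 bp and 1607, 1824 and 2001 bp. Kdm6b and Uty, relatives of Kdm6a, were marked in 0 libraries. Of 16 genes that Polycomb complexes classically silence, 1 was marked in any library: Cdkn2a, in 1 wild-type and 0 knockout libraries. Over the members themselves, 4.33 ± 0.577 of 10 were marked in wild-type and 6.67 ± 0.577 in knockout libraries. The shares with more covered bp in every knockout library are to be read against the 50.6% over all marked genes. Of all protein-coding genes, 26.3 to 29.9% had a marked gene end in a wild-type library, and 39.6 to 44.3% in a knockout library.

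**Figure D4:**
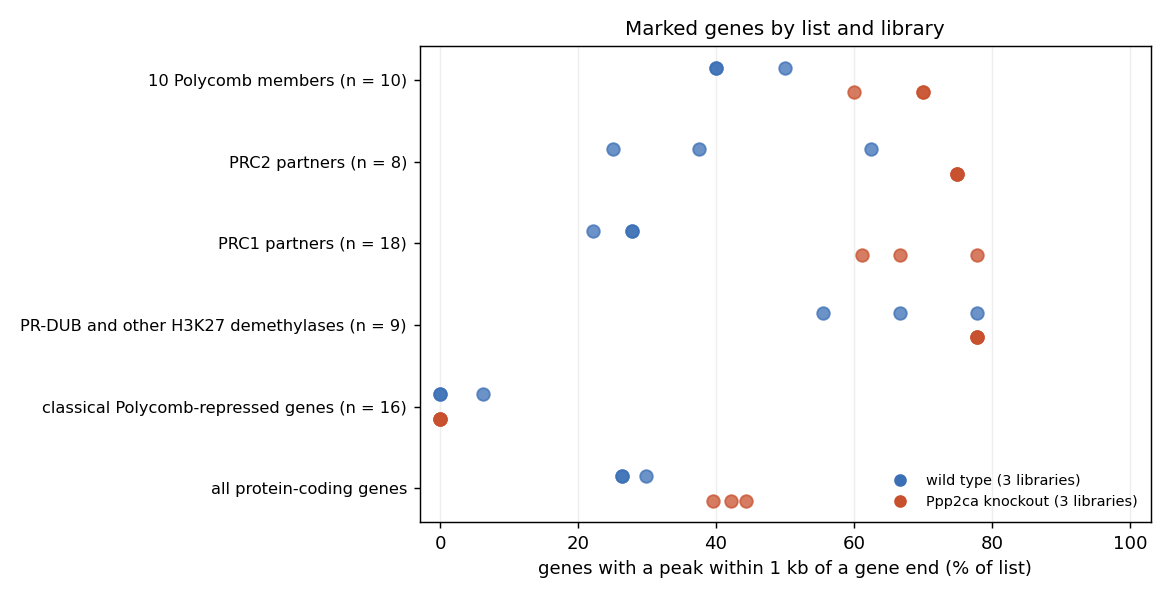
Share of each list with a peak within 1 kb of a gene end (% of the list, its size beside the name), with 1 point per library and all protein-coding genes in the bottom row. The members lie at 4 to 5 of 10 genes in wild-type and 6 to 7 of 10 in knockout libraries, and all genes at 26.3 to 29.9% and 39.6 to 44.3%.

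The pathway genes whose rank of gene-end coverage over the 6 libraries lay nearest to the members' median profile were Asxl1, L3mbtl2 and Phc3. Their distances, the root of the summed squared differences in percentile over 6 libraries, were 28.5, 39.3 and 40.1. Asxl1, a subunit of the deubiquitinase complex, had 200, 200 and 0 bp in the wild-type and 1344, 740 and 1084 bp in the knockout libraries. L3mbtl2, a subunit of a variant of Polycomb repressive complex 1, had 329, 238 and 0 bp and 1139, 1033 and 919 bp.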

How the data were processed

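H3K27ac CUT&RUN peaks were deposited for 6 libraries, 3 wild type and 3 Ppp2ca knockout, grouped by the sample titles. The submitters' processing notes name the trimmer Trimmomatic, the aligner BWA and the peak caller MACS2, besides deepTools, HOMER and ChIPseeker, and the build GRCm38/mm10. No version, setting or control library is stated in them. The authors deposited 1 peak list per library, and all 6 were used. Per the column order of the deposited narrowPeak files, each peak has a fold over background (a ratio), a −log10 p-value, a −log10 q-value and a score. The deposited score equalled 10 times the −log10 p-value, cut to a whole number, in 99.9% of a library's peaks or more. Ranks follow the −log10 p-value, with ties averaged. The fold values and ranks are the authors' or derive from theirs, and they describe peaks within 1 list.

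Summit fragments and local background were recovered from each peak's fold and −log10 p-value as a Poisson tail with 1 added to both. All peaks with a −log10 p-value under 15 gave whole fragments (tolerance 0.002). A gene was marked when at least 1 bp of a peak lay in its window of 1000 bp. Gene positions, starts and promoters came from RefSeq GRCm38.p6, and all 10 members had a promoter entry, as did 17491 genes in all. Groups were compared with two-sided exact permutation tests, adjusted by Benjamini-Hochberg over all marked genes. With 3 libraries a group, precision rests on the spread between libraries, which may in part be technical. Python 3.11.15, pandas 2.3.3 and scipy 1.17.1 were used, and the scripts were tested on simulated data. The members and gene lists were chosen with earlier results of these data known. Genes named from other lists were those marked in 3 libraries of 1 group and 0 of the other, the best-ranked marked in all 6, and the 3 nearest to the members' median. Others were named as examples after their values were seen.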

Additional observations from a re-analysis of the deposited data

How the results depend on the processing

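When only peaks with a q of 0.05 or less were kept, 1 member was marked at a gene end in all 6 libraries instead of 2, and the ratio of covered bp in the spans was 4.24 instead of 2.18. When the summit had to lie in the window, 1 member was marked in all 6 libraries, and 3 instead of 5 had more covered bp in every knockout library. The cause was not tested. Leaving out 1 library at a time gave 2 to 3 members marked in all remaining libraries, 5 to 6 members and 5992 to 7409 genes with more covered bp in every knockout library (5607 with all libraries), and ratios of 1.95 to 2.5. In the start windows, added after seeing the data, leaving out knockout library 2 raised the members with more covered bp in every knockout library from 5 to 7, adding Ezh1 and Eed, while the share of all genes went from 55.3% to 73.2%. Windows of 500 bp around the start gave 4 members, with Eed in and Suz12 and Kdm6a out. Of 112 differences of single members under the alternatives, 107 kept their direction, 0 reversed and 5 became 0, at Cbx7 or Cbx8. Part of this was fixed in advance. The differences under the replicate block, described next, are the main ones and could not change. Cbx7 and Cbx8 had 0 gene-end bp in every wild-type library, so most of their differences could not reverse. The counts are therefore no measure of stability. With the replicate number as a block, 5 members and 6567 genes had more covered bp in the knockout library of every pair, and the exact sign-flip test cannot give a p below 0.25. Same-numbered libraries did not deviate together (correlations of -0.00156, -0.0168 and -0.0102), and pairs with other numbers gave -0.0184 to 0.0274. With 3 libraries a group, these values cannot decide whether same-numbered libraries were handled together, and the labels do not say. Depth was not given, so a gene without a peak is one without a call at an unknown depth.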
